A study of Mus musculus with 2 samples.

Results

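The mitochondrial ribosomal protein genes are the nuclear genes whose symbols begin with Mrpl or Mrps followed by a digit. Symbols of this form, leaving out those marked -ps, numbered 78 of the 32285 genes counted, 49 of them Mrpl genes and 29 Mrps genes. GENCODE M21 annotates 78 of the 78 as protein-coding. Their levels were described in donor CD4 T cells recovered from the lungs of MARCH1-/- hosts and of WT hosts (strain C57BL/6), with 1 single-cell RNA library per host genotype. Donors were wild type in both groups and were given house dust mite (HDM), an allergen mixture, on days 0 and 7 to 11. At day 14 their lung-derived CD4 T cells took up Cell Trace Violet, which thins out at each division, and were transferred into the hosts. Hosts of both genotypes were challenged with HDM, and donor cells low in dye, which had divided, were sorted from the lung at day 4 after challenge. The enzyme that the mutant hosts lack, MARCH1, tags MHC class II and CD86 with ubiquitin in antigen-presenting cells and so takes them off the cell surface. The labels give neither the number of animals behind each library nor their age.

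The mitochondrial ribosome makes only the few proteins encoded in mitochondrial DNA, all of them core subunits of the respiratory chain and the ATP synthase. Its RNAs come from mitochondrial DNA, whereas every one of its proteins is encoded in the nucleus, translated in the cytosol and imported. Mrpl genes are named for the large subunit, which forms peptide bonds, and Mrps genes for the small subunit, which reads the messenger RNA. Some of these proteins have a counterpart in the bacterial ribosome and others are particular to mitochondria. Activated T cells are known to enlarge their mitochondrial mass and translation capacity before they divide.

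Promoter sequences are shown for the 3 members with the most UMIs and for Mrpl18 and Mrps26, both higher in MARCH1-/- host cells. The last sequence is that of Mrps11, which shares its start region with another member. Each is 250 bases before and 50 bases after the RefSeq transcription start on GRCm38.p6, written 5′ to 3′ on the strand of the gene. Capitals mark motif letters on either strand, with the ETS core (CCGGAAG) in the first 5 and the YY1 core (AAGATGGC) in the last. Mrpl33 lies at chr5:31613701-31614000 (plus strand), Mrpl52 at chr14:54426659-54426958 (plus), Mrps21 at chr3:95871465-95871764 (minus), Mrpl18 at chr17:12916042-12916341 (minus), Mrps26 at chr2:130563507-130563806 (plus) and Mrps11 at chr7:78782881-78783180 (plus).
Mrpl33: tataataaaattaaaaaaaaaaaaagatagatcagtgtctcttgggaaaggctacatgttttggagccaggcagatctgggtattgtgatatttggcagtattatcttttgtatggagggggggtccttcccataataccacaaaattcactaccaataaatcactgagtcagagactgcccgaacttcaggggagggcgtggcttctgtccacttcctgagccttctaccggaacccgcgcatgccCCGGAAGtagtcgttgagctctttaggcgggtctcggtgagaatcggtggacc
Mrpl52: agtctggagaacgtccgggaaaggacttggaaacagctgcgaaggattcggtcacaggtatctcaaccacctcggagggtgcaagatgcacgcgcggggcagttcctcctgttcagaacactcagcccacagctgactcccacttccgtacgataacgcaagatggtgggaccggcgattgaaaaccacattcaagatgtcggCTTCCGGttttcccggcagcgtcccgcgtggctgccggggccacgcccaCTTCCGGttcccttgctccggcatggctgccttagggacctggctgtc
Mrps21: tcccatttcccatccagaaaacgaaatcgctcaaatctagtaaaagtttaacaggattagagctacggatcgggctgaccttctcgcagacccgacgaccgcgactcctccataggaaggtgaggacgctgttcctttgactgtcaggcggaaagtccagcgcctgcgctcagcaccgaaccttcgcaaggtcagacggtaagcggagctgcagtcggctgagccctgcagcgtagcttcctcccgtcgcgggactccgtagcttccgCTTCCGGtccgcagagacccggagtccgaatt
Mrpl18: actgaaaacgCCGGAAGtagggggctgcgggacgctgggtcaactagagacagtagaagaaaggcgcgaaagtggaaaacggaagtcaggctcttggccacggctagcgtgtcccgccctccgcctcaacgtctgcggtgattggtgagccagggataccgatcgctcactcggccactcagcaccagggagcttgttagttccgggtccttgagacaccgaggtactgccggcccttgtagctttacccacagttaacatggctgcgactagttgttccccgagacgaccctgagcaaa
Mrps26: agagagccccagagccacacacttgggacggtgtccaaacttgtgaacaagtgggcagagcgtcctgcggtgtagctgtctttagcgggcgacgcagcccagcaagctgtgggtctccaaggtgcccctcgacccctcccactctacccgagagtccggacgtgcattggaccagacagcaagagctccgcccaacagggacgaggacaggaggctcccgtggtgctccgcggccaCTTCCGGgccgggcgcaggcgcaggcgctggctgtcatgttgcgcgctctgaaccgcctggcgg
Mrps11: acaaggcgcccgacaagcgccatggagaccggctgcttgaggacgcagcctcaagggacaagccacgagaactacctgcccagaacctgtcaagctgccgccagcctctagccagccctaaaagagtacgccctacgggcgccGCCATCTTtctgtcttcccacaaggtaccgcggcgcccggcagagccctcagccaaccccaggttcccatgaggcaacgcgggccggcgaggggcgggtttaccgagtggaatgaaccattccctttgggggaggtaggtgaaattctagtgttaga

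RefSeq promoters were matched by symbol for 69 of the 78 members. The ETS core, a motif of the GABP factor family, stood in the promoters of 26 members (37.7%), against 9.93% of all 27025 genes with a promoter in the table. The YY1 core stood in 12 members (17.4%), against 3.19% of all genes. The palindrome CGCATGCG, the core of the site bound by NRF1, stood in 7 members (10.1%), against 2.07% of all genes. The E-box CACGTG, a motif of MYC and related factors, stood in 5 members (7.25%), against 8.09% of all genes. Both strands were searched, none of the 4 motifs holds another, and a match describes letters only.

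Many of these genes start close to a neighbour on the other strand. In GENCODE M21, 24 of the 78 members (30.8%) had a protein-coding gene starting divergently within 1000 bases, against 7.82% of all protein-coding genes of the table. Both figures include pairs whose first bases overlap, which were those of Mrpl47, Mrpl27, Mrps7 and Mrpl21 (gaps of -157, -197, -126 and -116 bases). In 1 case both partners are mitochondrial ribosomal protein genes: Mrps11 and Mrpl46 start 30 bases apart on chromosome 7, so the sequence printed for Mrps11 also covers the start of Mrpl46. Mrpl18 starts 37 bases from Tcp1, a chaperonin subunit gene, and Mrpl32 75 bases from Psma2, a proteasome subunit gene. The GENCODE start of Mrpl18 lies upstream of the whole sequence printed for it, which is placed by the RefSeq start. That sequence therefore does not cover the stretch between Mrpl18 and Tcp1. Exons of 3 members (Mrps24, Mrps6 and Mrps34) overlap a protein-coding gene on the same strand, so how the authors' counting shared those reads is uncertain for them.

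A barcode was kept as a cell at 500 or more UMIs (unique molecular identifiers, 1 per captured RNA molecule), 250 or more detected genes and at most 10% of UMIs from mitochondrially encoded genes. This left 156 cells of the MARCH1-/- host library, with a median of 8017 UMIs, and 352 cells of the WT host library, with a median of 6086.5 UMIs. No barcode was shared by these sets of cells. The 12 CD4 T cell markers were all detected in both libraries and summed to 6256 UMIs per 1000000 UMIs of the same cells (CPM) in the MARCH1-/- host library and 4722 CPM in the WT host library. Markers of 6 other cell types stayed low: B cell markers summed to 3.81 and 1.56 CPM in MARCH1-/- host and WT host cells, macrophage and monocyte markers to 1.90 and 1.17, CD8 T cell markers to 10.2 and 11.7, and epithelial markers to 5.71 and 8.56. NK cell markers had 0 UMIs in both libraries, and dendritic cell markers had 0 UMIs in the MARCH1-/- host library and 3 in the WT host library. March1 itself had 0 UMIs in either library, and the donor cells were wild type, so the counts give no check of the host genotype. Each host genotype has 1 library, so nothing was tested, the 95% intervals cover counting error only, and animals, library preparation and host genotype cannot be told apart.

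Members are the 78 genes, which together held 10042 UMIs in the MARCH1-/- host library and 16052 in the WT host library. A median cell had 44.5 of these UMIs spread over 29 members in the MARCH1-/- host library, and 34.5 UMIs over 22 members in the WT host library. The kit reads 1 end of each captured molecule, so CPM values are not divided by transcript length. Every member had at least 1 UMI in each library, and levels ran from 5.08 to 443 CPM (median 61.9) in the MARCH1-/- host library and from 3.11 to 683 CPM (median 49.8) in the WT host library. The 5 members with the most UMIs held 26.7% of all member UMIs, and the top 10 held 40.3%. Mrps2, Mrps27 and Mrpl47 were the 3 members under 50 UMIs in both libraries together and are not counted in the host comparison.

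Among large subunit genes the 5 with the most UMIs were Mrpl33, Mrpl52, Mrpl57, Mrpl18 and Mrpl20. Mrpl33, the counterpart of bacterial ribosomal protein L33, was at 443 CPM in MARCH1-/- host cells and 683 CPM in WT host cells. Mrpl52, particular to mitochondria, was at 305 and 536 CPM in MARCH1-/- host and WT host cells. Among small subunit genes the 5 with the most UMIs were Mrps21, Mrps16, Mrps33, Mrps24 and Mrps14. Mrps21, the counterpart of bacterial S21, was at 200 CPM in MARCH1-/- host cells and 308 CPM in WT host cells. Taken singly, most members showed no more scatter over cells than counting gives, while their sum showed more. The Pearson statistic per degree of freedom, which is near 1 when a gene takes the same share of UMIs in every cell, had a median over members of 0.991 in the MARCH1-/- host library and 1.01 in the WT host library. With few UMIs of a member per cell the statistic stays near 1 even where shares vary, so it cannot show that a single member's share is even. The statistic was 2.22 and 1.48 for Mrps6, whose exons overlap Slc5a3, and 1.65 and 1.88 for Mrpl33, in MARCH1-/- host and WT host cells. Summed over all members it was 3.72 in MARCH1-/- host cells and 3.01 in WT host cells, so the members' summed share varied between cells by more than counting gives. The counting intervals of the sums, in every comparison, and of Mrps6 and Mrpl33 are therefore too narrow. For the other members this could not be told.

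The subunits stood in nearly the same balance in both libraries. Mrpl genes summed to 4188 CPM and Mrps genes to 2185 CPM in MARCH1-/- host cells, a ratio of 1.92 (log2 0.94, 0.88 to 0.998). In WT host cells the sums were 4152 and 2091 CPM, a ratio of 1.99 (log2 0.99, 0.94 to 1.04). The intervals overlap. In structures of the mammalian mitochondrial ribosome Mrps30 and Mrps18a sit in the large subunit, and Mrps36 has been assigned to the 2-oxoglutarate dehydrogenase complex. Counting Mrps30 and Mrps18a as large and leaving out Mrps36 gave a log2 ratio of 1.09 in MARCH1-/- host cells and 1.12 in WT host cells.

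The host genotypes differed little in the sum of these genes and more in its make-up. Mitochondrial ribosomal protein UMIs summed to 6374 CPM (6249 to 6499) in MARCH1-/- host cells and 6243 CPM (6147 to 6341) in WT host cells, a log2 ratio of 0.03 (-0.01 to 0.07). The median member, however, had a log2 ratio of 0.29, and 56 of 75 members with at least 50 UMIs lay above 0. All genes tested lay higher in the MARCH1-/- host library too, with a median log2 ratio of 0.25, and 39 of the 75 members lay above that median. Past 1.5-fold, 22 of 75 members were higher in MARCH1-/- host cells, while 25.6% of all 6762 genes tested were. Past the same fold, 5 members (Mrpl19, Mrpl52, Mrps21, Mrpl33 and Mrpl53) were lower, while 8.3% of all genes were. These shares of members are near those of all genes. Scaled to the median gene, 6 of 75 members were past 1.5-fold higher and 9 lower, against 12.6% and 15.1% of all genes. The 3 most abundant members were all lower in MARCH1-/- host cells, and without Mrpl33, Mrpl52 and Mrps21 the log2 ratio of the sum was 0.20 (0.16 to 0.24).

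**Figure D1:**
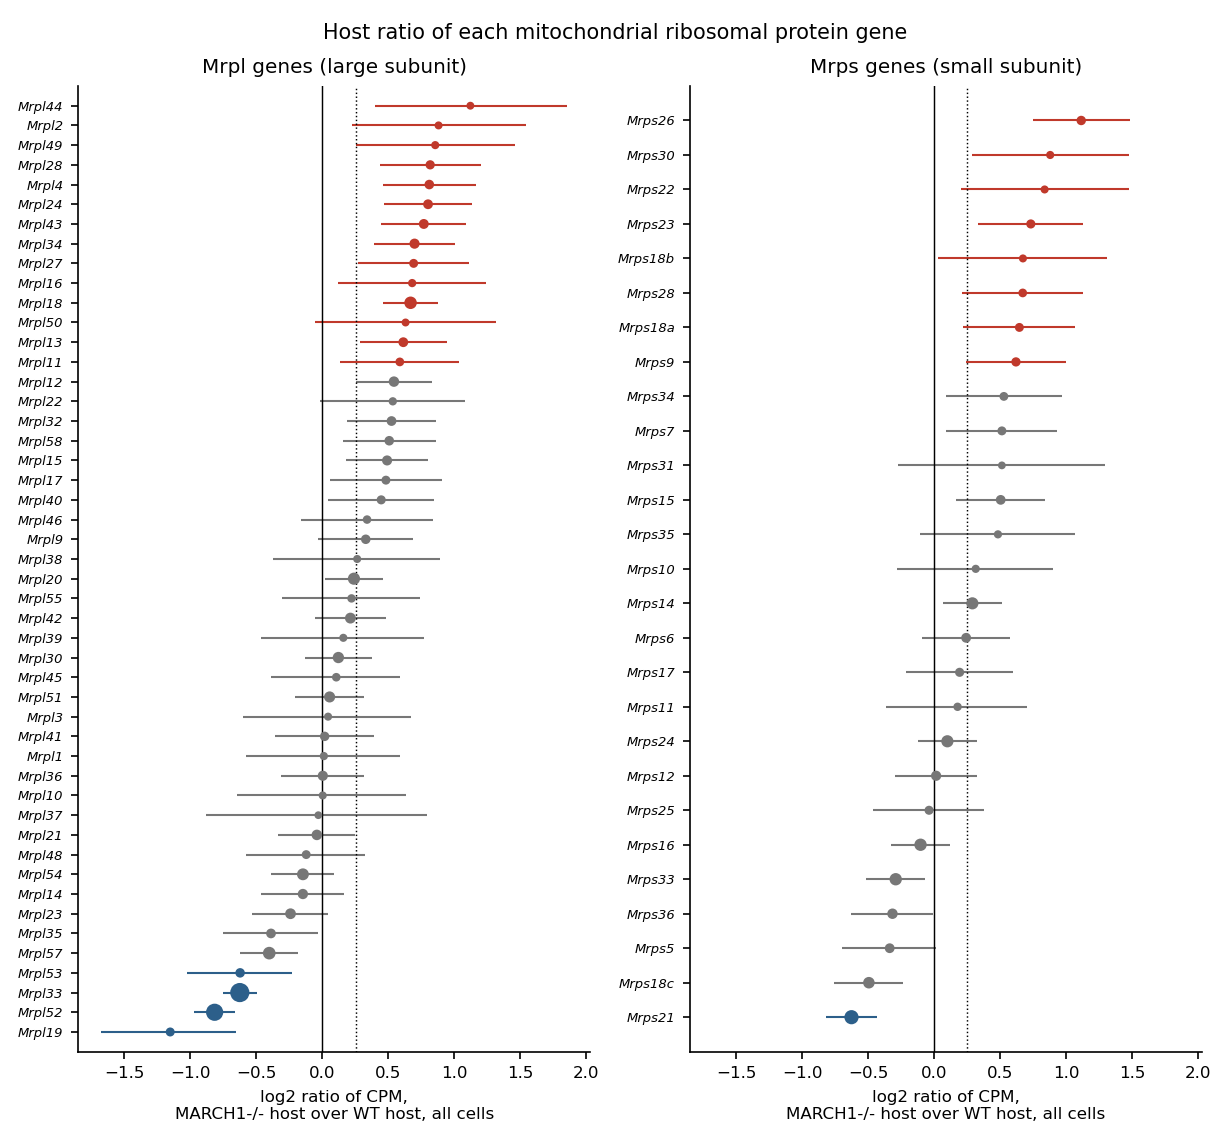
Log2 ratio of CPM, MARCH1-/- host over WT host, for the 75 members with at least 50 UMIs, Mrpl genes on the left and Mrps genes on the right. Lines are 95% counting intervals, point area grows with UMIs, red and blue mark members past 1.5-fold higher and lower, and the dotted line is the median gene at 0.25. The largest points, Mrpl33, Mrpl52 and Mrps21, lie on the negative side while 56 members lie above 0.

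The members lower in MARCH1-/- host cells came from both subunits. Mrpl52 had a log2 ratio of -0.82 (-0.97 to -0.67), Mrpl33 of -0.63 (-0.75 to -0.50) and Mrps21 of -0.63 (-0.82 to -0.44). Mrpl19, the counterpart of bacterial L19 at the face between the subunits, was at 27.3 CPM in MARCH1-/- host cells and 60.7 CPM in WT host cells (log2 -1.15, -1.68 to -0.66). Mrpl53, particular to mitochondria, was at 48.2 CPM in MARCH1-/- host cells and 74.3 CPM in WT host cells (log2 -0.62). Mrps18c was at 113 CPM in MARCH1-/- host cells and 159 CPM in WT host cells (log2 -0.49, -0.76 to -0.24). Its paralogues lay the other way. Mrps18a had a log2 ratio of 0.65 (59.7 CPM in MARCH1-/- host cells and 38.1 in WT host cells) and Mrps18b of 0.67 (27.3 and 17.1 CPM). The interval of Mrps18c does not reach those of Mrps18a and Mrps18b.

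Members higher in MARCH1-/- host cells were mostly of moderate abundance. Mrps26, particular to mitochondria, was at 92.7 CPM in MARCH1-/- host cells and 42.8 CPM in WT host cells (log2 1.11, 0.75 to 1.49). Mrpl18, the counterpart of the bacterial protein that binds 5S ribosomal RNA, was at 237 CPM in MARCH1-/- host cells and 149 CPM in WT host cells (log2 0.67, 0.46 to 0.88). Its ratio was smaller in non-cycling cells, as given below with the cycling states. Of the others, Mrpl24, Mrpl4, Mrpl43 and Mrpl28 were at 100.3, 91.4, 105 and 77.4 CPM in MARCH1-/- host cells and at 57.6, 52.1, 61.8 and 44.0 CPM in WT host cells, with log2 ratios of 0.80, 0.81, 0.77 and 0.82. These 6, chosen by a rule, were those whose intervals end farthest above 0. Mrpl12, which forms the flexible stalk that recruits translation factors, had a log2 ratio of 0.54 (121 CPM in MARCH1-/- host cells and 83.2 in WT host cells). Mrpl10, the base of that stalk, had one of 0.00 at 22.2 CPM in both libraries. Mrps30 was at 0.88 and Mrps36 at -0.32.

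By origin, the 28 tested large subunit members with a bacterial homologue had a median log2 ratio of 0.49 and the 19 particular to mitochondria one of 0.16. In the small subunit the order was reversed, at 0.19 for 15 members with a bacterial homologue and 0.53 for 9 particular to mitochondria. Divergent partners did not all keep together. Mrps11 and Mrpl46 lay at 0.18 and 0.34, Mrpl18 and Tcp1 at 0.67 and 0.42, and Mrpl32 and Psma2 at 0.52 and 0.57. Mrpl49 lay at 0.86 while its neighbour Fau, a cytosolic ribosomal protein gene, lay at -0.72, and Mrpl30 lay at 0.12 while Mitd1 lay at -0.90. Mrpl51 and Ncapd2 lay at 0.06 and 0.15, Mrpl40 and Hira at 0.45 and -0.02, and Mrps18b and Ppp1r10 at 0.67 and -0.14. These are all the pairs with at least 50 UMIs for each gene.

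Members with short transcripts had lower host ratios. The 13 members whose median annotated transcript is under 700 nucleotides had a median log2 ratio of -0.24, and 4 of the 13 lay above 0. The 62 members of 700 nucleotides or more had a median of 0.48, and 52 of the 62 lay above 0. Mrpl52 (440.5 nucleotides), Mrps21 (446.5) and Mrpl33 (478) have the 3 shortest transcripts drawn in the plot against length, and Mrpl34 (607 nucleotides, log2 0.70) and Mrpl20 (494 nucleotides, 0.24) were short members that lay above 0. Beyond 700 nucleotides there was no steady trend: the median was 0.62 for 19 members of 1000 to 1500 nucleotides and 0.05 for 12 of 3000 or more, among them Mrpl19 with 5000. The pattern was not particular to these genes: 273 other genes under 700 nucleotides had a median of -0.29, the 6322 other genes of 700 or more one of 0.27, and 35 short cytosolic ribosomal protein genes one of -0.57. It was present in both cycling states, with medians of -0.29 and 0.42 for members under and over 700 nucleotides in cycling cells and of -0.25 and 0.13 in non-cycling cells. Cytosolic ribosomal protein genes took 22.6% of UMIs in MARCH1-/- host cells and 27.7% in WT host cells. The length limit was chosen after the values were seen. Spearman's rho between length and log2 ratio was only 0.17 over all 75 members, and -0.09 over 6758 genes. Between a member's UMIs over both libraries and its log2 ratio, rho over the 75 members was -0.44, farther from 0 than for length. The part of transcript length or of abundance in the host ratios was not tested.

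**Figure D2:**
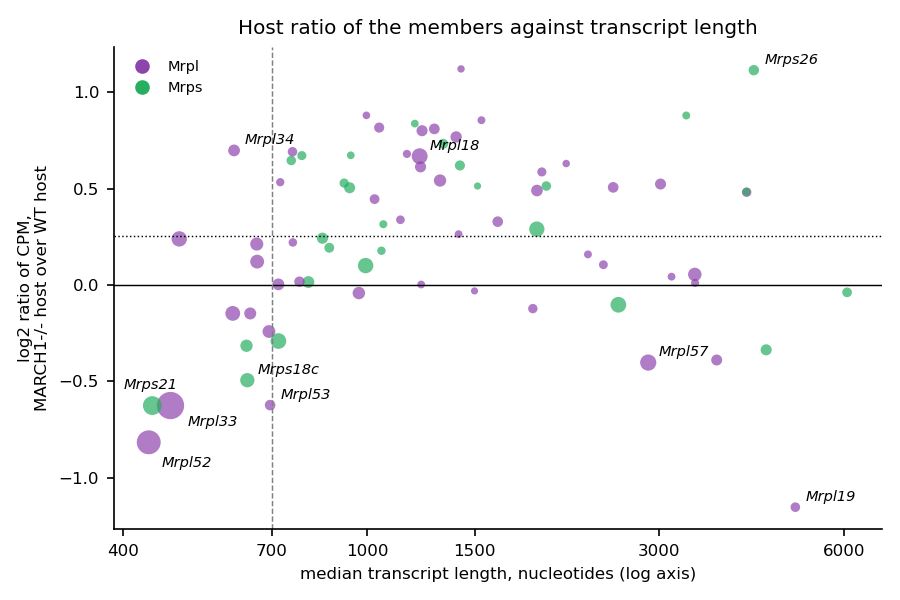
Log2 ratio of CPM, MARCH1-/- host over WT host, against the median transcript length of each member (log axis), with Mrpl genes in purple and Mrps genes in green and point area growing with UMIs. Left of the dashed line at 700 nucleotides 9 of 13 members lie below 0, and the dotted line is the median gene at 0.25.

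RNA outside the cells gave the same sign as the cells for most members, but not the same sum or median. In barcodes under 100 UMIs, which hold free RNA and fragments, Mrpl33 was at 413 CPM in the MARCH1-/- host library and 678 CPM in the WT host library (log2 -0.71, -0.99 to -0.45). There Mrpl52 had a log2 ratio of -1.34, Mrps21 one of -1.24 and Mrps26 one of 0.82. Of 58 members with at least 50 UMIs in these barcodes, 45 had the same sign as in the cells and 29 lay above 0. The same count was not made over all genes, so whether this agreement is particular to the members is not known. The median log2 ratio in these barcodes was -0.006, against 0.29 in cells. Summed over members, these barcodes held 5919 CPM in the MARCH1-/- host library and 7131 CPM in the WT host library. Their log2 ratio was -0.27 (-0.34 to -0.20), against 0.03 in cells. Free RNA thus carries these transcripts at a level near that in cells, and its part in the values for cells was not tested. Barcodes over the mitochondrial limit held less, at 2045 CPM over 25 barcodes of the MARCH1-/- host library and 2466 CPM over 72 barcodes of the WT host library. Mitochondrially encoded UMIs fill part of the total there. With them left out of the total, the values were 2822 CPM in the MARCH1-/- host library and 3062 CPM in the WT host library. Barcodes under 100 UMIs had 5980 and 7184 CPM on that scale.

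Cells were divided by the share of their UMIs in 40 cell cycle genes, none of them a member: cycling at 0.5% or more and non-cycling under 0.2%. This range of a score gave 45 cycling and 99 non-cycling cells in the MARCH1-/- host library, and 59 and 256 in the WT host library. In the MARCH1-/- host library 8 cells lay between 0.4 and 0.6%, and in the WT host library 21 did. Mitochondrial ribosomal protein genes took a larger share of UMIs in cycling cells of both libraries. In MARCH1-/- hosts they summed to 6919 CPM (6735 to 7106) in cycling cells and 5552 CPM (5373 to 5736) in non-cycling cells, a log2 ratio of 0.32 (0.26 to 0.38). In WT hosts they summed to 6582 CPM (6399 to 6768) in cycling cells and 5809 CPM (5686 to 5935) in non-cycling cells, a log2 ratio of 0.18 (0.13 to 0.23). Cells between these limits were higher still, at 7119 CPM in 12 MARCH1-/- host cells and 7249 CPM in 37 WT host cells.

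Depth moved with this difference. Cycling cells had a median of 15038 UMIs in MARCH1-/- hosts and 11058 in WT hosts, against 6298 and 5003 in non-cycling cells. Among cells of 6000 to 12000 UMIs, the MARCH1-/- host library had 6201 CPM in 10 cycling cells and 5715 CPM in 50 non-cycling cells, a log2 ratio of 0.12 (-0.02 to 0.25). In the same range the WT host library had 6094 CPM in 23 cycling cells and 6063 CPM in 90 non-cycling cells, a log2 ratio of 0.01 (-0.08 to 0.10). Other ranges differed. At 3000 to 6000 UMIs, 2 cycling MARCH1-/- host cells had 7433 CPM, against 5023 in non-cycling ones. There 5 cycling WT host cells had 5984 CPM, against 5269. At 12000 or more, cycling cells had 7007 CPM against 6289 in MARCH1-/- hosts, and 6841 against 7274 in WT hosts. Under 3000 UMIs, 3 cycling WT host cells had 4369 CPM, against 5021. Within non-cycling cells alone the sum was higher at each step of depth (500 to 3000, 3000 to 6000, 6000 to 12000 and 12000 or more UMIs), at 4420, 5023, 5715 and 6289 CPM in MARCH1-/- hosts and 5021, 5269, 6063 and 7274 CPM in WT hosts. The end ranges are thin, with 6 and 4 MARCH1-/- host cells at the lowest and highest depth and 6 WT host cells at the highest. Over cells of 3000 or more UMIs, the members' share and the total UMIs of a cell had a Spearman's rho of 0.44 over 149 MARCH1-/- host cells and 0.41 over 305 WT host cells, with the total entering both quantities. Stricter limits, 1% for cycling and 0.1% for non-cycling, left 15 cycling cells in each library and log2 ratios of 0.076 in MARCH1-/- hosts and -0.036 in WT hosts. The part of depth in the cycling difference was not tested beyond these values.

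**Figure D3:**
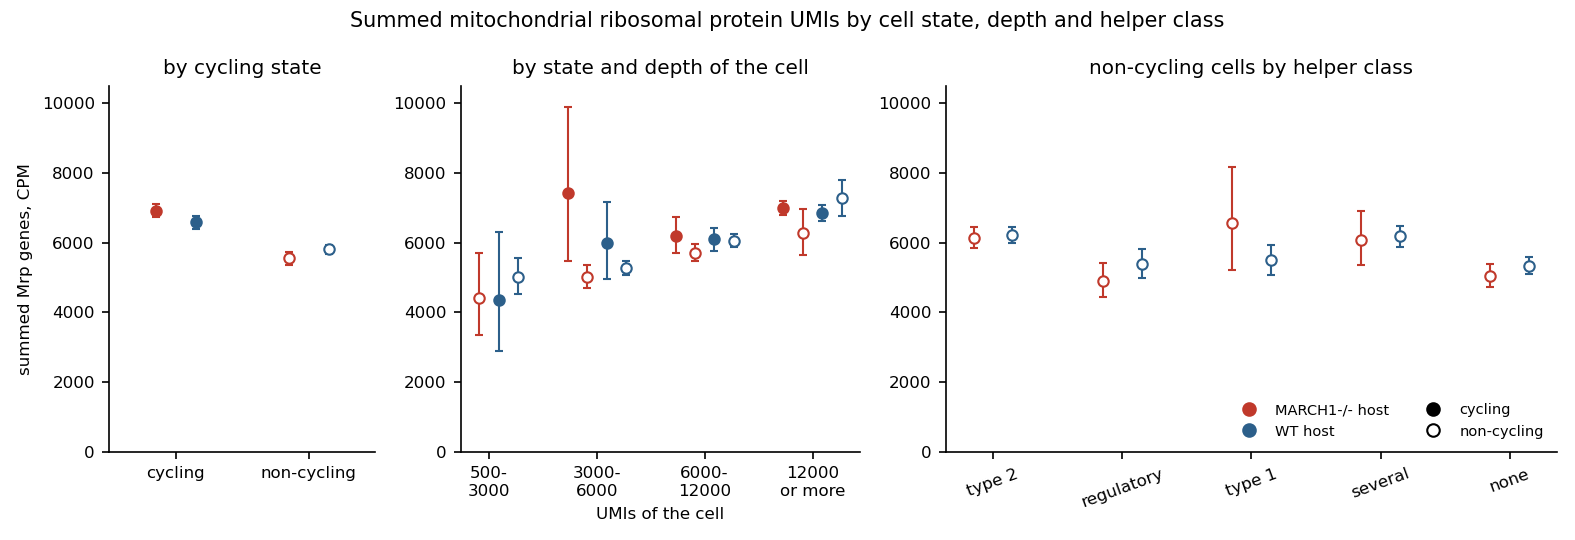
Summed CPM of the 78 members with 95% counting intervals, in MARCH1-/- hosts (red) and WT hosts (blue), for cycling (filled) and non-cycling (open) cells, then by the UMIs of the cell, then for non-cycling cells by helper class. Sums are higher in cycling cells on the left, are higher at each step of depth for non-cycling cells in the middle, and are 6138 and 6231 CPM in type 2 cells on the right against 5051 and 5335 CPM in cells with no helper marker.

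Of the single members, 42 of 54 lay above 0 in MARCH1-/- hosts and 43 of 62 in WT hosts, where the median of all genes was at -0.06 and -0.09. Past 1.5-fold, 19 of 54 members were higher in cycling cells of MARCH1-/- hosts, against 19.2% of 4027 genes, and 7 of 62 in WT hosts, against 13.3% of 4781 genes. Lower past 1.5-fold were 2 members in each library, while 22.1% of all genes were in MARCH1-/- hosts and 18.7% in WT hosts. Members past the fold upward were thus a larger share than among all genes in MARCH1-/- hosts and a slightly smaller one in WT hosts, and members past it downward a smaller share in both. Scaled to the median gene, 0 members were lower past 1.5-fold in MARCH1-/- hosts, against 19.4% of genes, and with 20 UMIs as the minimum 5 were lower in WT hosts, against 22.1%. Of the 54 members counted in both libraries 33 lay above 0 in both, while 34.7% of 3851 genes did.

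Mrpl18 stood out among the abundant members. It was at 325 CPM in cycling cells and 132 CPM in non-cycling cells of MARCH1-/- hosts (log2 1.30, 0.94 to 1.67), and at 196 and 108 CPM in cycling and non-cycling cells of WT hosts (log2 0.86, 0.52 to 1.19). Mrpl28, Mrpl27 and Mrpl51 were the other 3 members past 1.5-fold higher with at least 50 UMIs in both libraries. The share of all genes past the fold in both libraries was not counted, so these cannot be called many or few. Mrpl28, the counterpart of bacterial L28, was at 107 CPM in cycling and 36.9 CPM in non-cycling cells of MARCH1-/- hosts (log2 1.54), and at 54.7 and 35.2 CPM in those of WT hosts (log2 0.64). Mrpl27, whose bacterial counterpart reaches into the site of peptide bond formation, was at 78.7 CPM in cycling and 38.4 CPM in non-cycling cells of MARCH1-/- hosts (log2 1.03), and at 48.1 and 25.5 CPM in those of WT hosts (log2 0.91). Mrpl51 was at 165 CPM in cycling and 83.0 CPM in non-cycling cells of MARCH1-/- hosts (log2 0.99), and at 151 and 93.2 CPM in those of WT hosts (log2 0.69). Mrps28 had log2 ratios of 1.47 in MARCH1-/- hosts and 0.47 in WT hosts. Mrpl49 had 0.65 (-0.27 to 1.63) on 46 UMIs in MARCH1-/- hosts and 1.84 (0.85 to 2.90) on 40 UMIs in WT hosts.

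Some members went the other way. Mrps6 was at 68.3 CPM in cycling and 106 CPM in non-cycling cells of MARCH1-/- hosts (log2 -0.63, -1.18 to -0.10), and at 46.7 and 78.0 CPM in those of WT hosts (log2 -0.74, -1.33 to -0.18). Mrpl24 was at 79.9 CPM in cycling and 125 CPM in non-cycling cells of MARCH1-/- hosts (log2 -0.64, -1.14 to -0.14), and at 38.7 and 64.9 CPM in those of WT hosts (log2 -0.75, -1.40 to -0.13). Both were past 1.5-fold lower in both libraries, and the share of all genes lower in both was not counted. Mrpl9 had a log2 ratio of -0.36 in both libraries, Mrpl30 of -0.12 in MARCH1-/- hosts and -0.30 in WT hosts, and Mrpl19 of -0.17 and -0.16. The intervals of these last 3, over both libraries together, included 0.

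**Figure D4:**
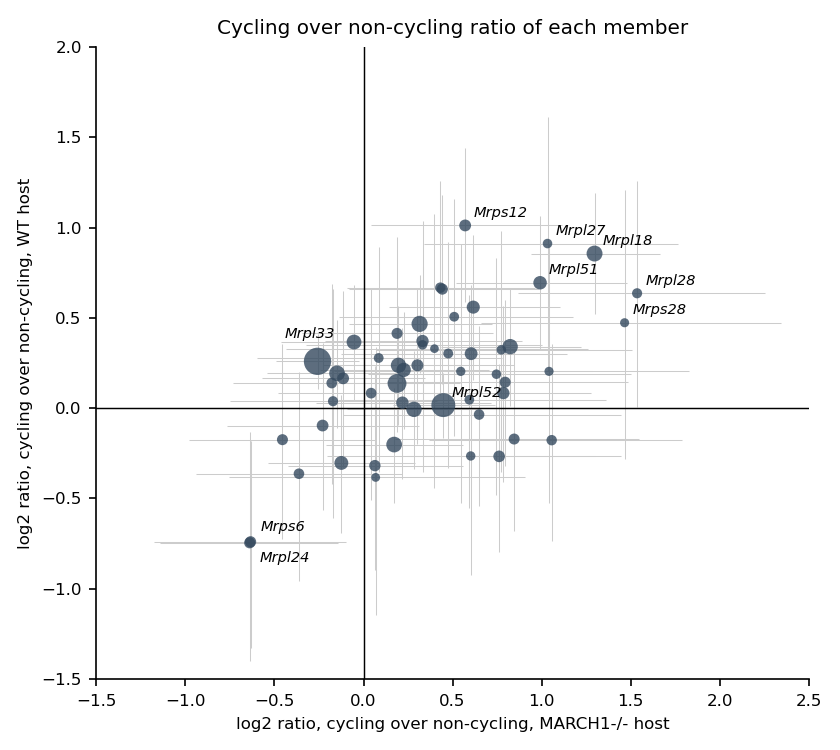
Log2 ratio of cycling over non-cycling cells for the 54 members with at least 50 UMIs in each library, MARCH1-/- hosts on the horizontal axis and WT hosts on the vertical axis, with 95% counting intervals in grey and point area growing with UMIs. Mrpl18, Mrpl27, Mrpl28 and Mrpl51 lie above 0.58 on both axes, and Mrps6 and Mrpl24 lie near -0.6 and -0.7.

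Within cycling cells, those with at least as many S phase as G2 and mitosis UMIs had the higher member sum in MARCH1-/- hosts, at 7385 CPM (7088 to 7691) over 19 cells, against 6600 CPM (6367 to 6839) over the other 26. In WT hosts the sums were 6616 CPM over 20 cells and 6566 CPM over 39 cells, with overlapping intervals. Between hosts, cycling cells had 6919 CPM in MARCH1-/- hosts and 6582 CPM in WT hosts (log2 0.07, 0.02 to 0.13), and non-cycling cells had 5552 and 5809 CPM (log2 -0.07, -0.12 to -0.01). In cycling cells 17 of 59 members were past 1.5-fold higher in MARCH1-/- hosts and 5 lower, against 26.9% and 11% of all genes. In non-cycling cells 12 of 61 were higher and 8 lower, against 25.1% and 9.79%. Scaled to the median gene, 7 were higher and 8 lower in cycling cells, against 14.6% and 17.9%, and 4 higher and 14 lower in non-cycling cells, against 13.2% and 16.6%. Mrpl33 was lower in MARCH1-/- hosts in both states, at a log2 ratio of -0.93 in cycling and -0.41 in non-cycling cells. Mrpl52 (-0.59 and -1.02) and Mrpl19 (-1.17 and -1.15) were too, while Mrpl24 (1.05 and 0.94) and Mrps26 (0.78 and 1.02) were higher in both. Mrpl18 had a log2 ratio of 0.73 (0.43 to 1.03) in cycling cells and 0.29 (-0.11 to 0.67) in non-cycling cells. Cycling cells made up 28.8% of MARCH1-/- host cells and 16.8% of WT host cells. Their part in the ratio of Mrpl18 over all cells was not tested.

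Helper classes were assigned by at least 1 UMI of a marker and are compared inside non-cycling cells, with cells that held markers of several classes taken out as a class of their own. Type 2 cells (Il4, Il5 or Il13) had 6138 CPM of mitochondrial ribosomal protein UMIs in MARCH1-/- hosts (30 cells), against 5051 CPM in 36 cells with no marker of any class (log2 0.28, 0.17 to 0.40). In WT hosts 67 type 2 cells had 6231 CPM, against 5335 CPM in 77 cells with no marker (log2 0.22, 0.14 to 0.31). Regulatory cells (Foxp3) were at 4900 CPM in 15 MARCH1-/- host cells and 5400 CPM in 25 WT host cells. Type 1 cells (Ifng or Tbx21) were at 6570 CPM in 3 MARCH1-/- host cells, with an interval of 5217 to 8166, and 5493 CPM in 24 WT host cells. Cells with markers of several classes were at 6089 CPM in 6 MARCH1-/- host cells and 6186 CPM in 37 WT host cells. A marker is seen more often in a deep cell: type 2 cells had medians of 8614 UMIs in MARCH1-/- hosts and 6917 in WT hosts, against 4937 and 4053 in cells with no marker. Among WT host cells of 6000 to 12000 UMIs the log2 ratio of type 2 cells over cells with no marker was 0.03 (-0.09 to 0.16), while among MARCH1-/- host cells of that depth it was 0.29 (0.14 to 0.44).

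Few members had enough UMIs for this comparison. In MARCH1-/- hosts 2 of 15 members were past 1.5-fold higher in type 2 cells (Mrps33 and Mrpl20), against 12.5% of all genes, and 0 were lower, against 11.1%. In WT hosts 5 of 31 were higher, against 11.9%, and 2 lower, against 10.8%. Mrpl33 had the most UMIs and was higher in type 2 cells of both libraries, though type 2 cells were deeper and it was not compared at matched depth. It was at 561 CPM in type 2 cells and 378 CPM in cells with no marker in MARCH1-/- hosts (log2 0.57, 0.16 to 0.99), and at 828 and 490 CPM in those of WT hosts (log2 0.76, 0.49 to 1.03). Mrpl52, of similar length, had log2 ratios of 0.20 in MARCH1-/- hosts and -0.16 in WT hosts, with intervals that include 0. Mrpl18 had log2 ratios of -0.09 (-0.81 to 0.64) in MARCH1-/- hosts and 0.06 (-0.61 to 0.75) in WT hosts, intervals too wide to compare it with Mrpl33. Il4, Il5 and Il13 themselves summed to 419 CPM over all MARCH1-/- host cells and 1117 CPM over all WT host cells, and the part of this in the host ratio of Mrpl33 was not tested.

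**Figure D5:**
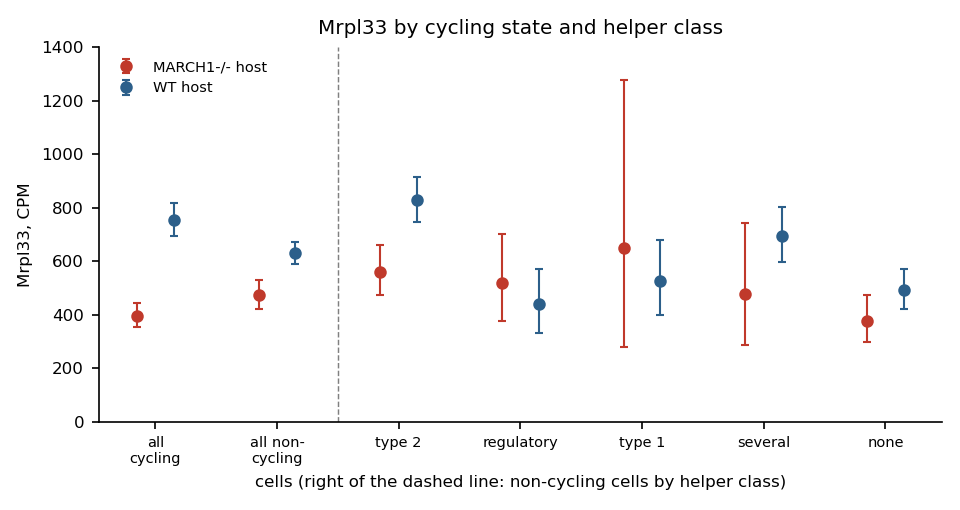
CPM of Mrpl33 with 95% counting intervals in MARCH1-/- hosts (red) and WT hosts (blue), for all cycling and all non-cycling cells and for non-cycling cells by helper class. In WT hosts type 2 cells reach 828 CPM and cells with no marker 490 CPM, and in MARCH1-/- hosts they reach 561 and 378 CPM.

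The other parts of the mitochondrial translation apparatus were measured on fewer UMIs. The 5 further subunits without an Mrpl or Mrps symbol summed to 428 CPM in MARCH1-/- host cells and 394 CPM in WT host cells (log2 0.12, -0.02 to 0.26). Dap3, a small subunit protein that binds GTP, was at 74.9 and 51.3 CPM in MARCH1-/- host and WT host cells (log2 0.54), and the short Chchd1 at 114 and 149 CPM (log2 -0.39). Of the 5, 4 were counted in the cycling comparison, and 4 lay above 0 in each library. Of 10 translation factors tested, 1 was past 1.5-fold, Tsfm, the exchange factor of the elongation factor Tufm, at 35.5 CPM in MARCH1-/- host cells and 8.95 CPM in WT host cells (log2 1.99, 1.27 to 2.76). Tufm itself was at 28.6 and 30.3 CPM. Of 7 assembly factors tested, Ddx28 (log2 1.19) and Mpv17l2 (0.78) were past 1.5-fold higher, and of 6 tRNA synthetases Fars2 (1.56) and Cars2 (0.89) were. No gene of these 3 lists was past 1.5-fold lower. Over all genes 25.6% were higher and 8.3% lower.

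Genes that act before and around the mitochondrial ribosome lay on both sides of 0. Of 24 protein import genes 5 were past 1.5-fold higher in MARCH1-/- host cells and 2 lower, near the 25.6% and 8.3% of all genes. Tomm40, the import channel of the outer membrane, was at 59.0 CPM in MARCH1-/- host cells and 25.7 CPM in WT host cells (log2 1.20), and Tomm7, a small subunit of the same complex, at 354 and 881 CPM (log2 -1.32). The other import genes past the fold were Tomm22 (log2 0.90), Timm17a (0.87), Tomm20 (0.72) and Timm50 (0.69) upward and Timm10 (-0.84) downward. Slirp, which protects mitochondrial messenger RNA together with Lrpprc, was at 64.1 CPM in MARCH1-/- host cells and 139 CPM in WT host cells (log2 -1.12), while Lrpprc was at 17.1 CPM in both. Polg2, a subunit of the mitochondrial DNA polymerase, had a log2 ratio of 0.71. Of the regulators, Esrra was at 22.2 CPM in MARCH1-/- host cells and 7.39 CPM in WT host cells (log2 1.59), Rptor had a log2 ratio of 0.66 (-0.06 to 1.39), Gabpa and Yy1 had ratios of 0.36 and 0.24, and Ppargc1a had 0 UMIs in both libraries. The 13 mitochondrially encoded genes, which hold all the products of this ribosome, took 2.66% of UMIs in MARCH1-/- host cells and 2.45% in WT host cells. Between cycling states they took 2.61% in cycling and 2.81% in non-cycling cells of MARCH1-/- hosts, and 2.47% and 2.48% in those of WT hosts. The log2 ratio of their sum was -0.10 (-0.13 to -0.08) in MARCH1-/- hosts and -0.01 (-0.03 to 0.02) in WT hosts.

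Ribosome synthesis in the nucleolus, which serves the cytosolic ribosome, had the larger median difference between cycling states in MARCH1-/- hosts, and the larger difference of sums in both libraries. Of 16 nucleolar genes tested, 15 lay above 0 in cycling cells of MARCH1-/- hosts, with a median log2 ratio of 0.96 beside 0.36 for the members, and 13 in WT hosts, with a median of 0.19 beside 0.20. The median of all genes was at -0.06 and -0.09. Summed, nucleolar genes had log2 ratios of 0.81 (0.72 to 0.89) in MARCH1-/- hosts and 0.31 (0.24 to 0.38) in WT hosts, beside 0.32 and 0.18 for the members. Hspd1, the mitochondrial chaperonin that folds imported proteins, was at 411 CPM in cycling and 125 CPM in non-cycling cells of MARCH1-/- hosts (log2 1.72), and at 239 and 199 CPM in those of WT hosts (log2 0.26). Cytosolic ribosomal protein genes had log2 ratios of their sum of 0.11 in MARCH1-/- hosts and -0.08 in WT hosts, below the 0.32 and 0.18 of the mitochondrial ones. Their share of a cell's UMIs was hardly related to that of the members, with a Spearman's rho of 0.07 over 149 MARCH1-/- host cells and 0.01 over 305 WT host cells.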

How the data were processed

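The deposited files hold raw UMI counts, whole numbers per gene and barcode with no normalization by the authors, for 158635 barcodes of the MARCH1-/- host library and 223154 of the WT host library. Libraries were made with a 10x 3' kit, per the labels' protocols. The submitters' processing notes name Cell Ranger 3.1.0 and mm10, but the headers of the matrices give version 4, so the version is uncertain. Which gene annotation was counted against is not stated.

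Cells were kept by the limits on UMIs, genes and mitochondrial share given with the results, which left 1575581 UMIs in 156 cells and 2571048 UMIs in 352 cells. The 6 and 1 barcodes that Scrublet called doublets (expected rate 0.05, in scanpy 1.11.5) were kept, and left out as an alternative. UMIs were summed over cells and scaled to 1000000 (CPM), with exact Poisson intervals. Ratios carry exact conditional binomial (Clopper-Pearson) intervals at 95%. Genes with at least 50 UMIs in both sets of cells together were compared, and calls were made past 1.5-fold. The ratio and its interval were tested on simulated counts drawn with counting error only. That test therefore does not cover the spread between cells given with the results. Transcript lengths, overlaps and divergent starts came from GENCODE M21, matched by ID for 99.6% of genes, and promoters from RefSeq. Tables were handled with pandas 2.3.3 and numpy 2.4.6, intervals came from scipy 1.17.1 and plots from matplotlib 3.10.9, all under Python 3.11.15.

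Members named singly were the 5 most abundant of each subunit, the 6 highest and 6 lowest in the host and cycling comparisons by the interval end nearest 0, and members with known special roles. Of the comparison lists, some abundant genes were named, and the genes past 1.5-fold between hosts. Nucleolar, cytosolic ribosomal protein and mitochondrially encoded genes past that fold were not named. The values of 1 helper class are not reported here. Its cells were kept out of the other classes and of the cells with no marker. The members and lists were chosen with earlier results of these data known.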

Additional observations from a re-analysis of the deposited data

Results flagged for a closer look

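Mrpl33 went opposite ways between cycling states in the 2 libraries. In MARCH1-/- hosts it was at 396 CPM in cycling and 473 CPM in non-cycling cells, a log2 ratio of -0.26 (-0.49 to -0.03). In WT hosts it was at 753 CPM in cycling and 629 CPM in non-cycling cells, a log2 ratio of 0.26 (0.11 to 0.41). Both counting intervals exclude 0, and Mrpl33 was the only one of the 78 members with intervals on opposite sides of 0. Of the 78, 54 had at least 50 UMIs in each library, and Mrpl33 had the most UMIs, which narrows its counting intervals. The same count was not made over all genes. The difference between the libraries was not tested, with 1 library per host genotype. UMIs of Mrpl33 varied between cells by more than counting alone gives, so the intervals are too narrow.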

How the results depend on the processing

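Of 121 alternative values computed, 88 kept the direction and stayed within the counting interval or, for counts, within 1.5 times, and 33 did not, 8 of which changed sign; the cause was not tested. The host ratio of the sum (log2, all cells) changed sign to -0.068 with cytosolic ribosomal protein and mitochondrially encoded UMIs left out of the total, -0.22 relative to the median gene, -0.014 without the 5% of cells with the most UMIs and -0.070 in cells of 6000 to 12000 UMIs. It became 0.29 as the median member and 0.20 without the 3 most abundant members. For non-cycling cells the values were -0.18, -0.29, 0.060 (median member, sign changed) and 0.088 (without the 3 members, sign changed). For cycling cells they were 0.012, -0.15 (relative to the median gene, sign changed), 0.33 and 0.26. So the direction of the host difference in the sum depends on the scaling.

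Cycling over non-cycling became 0.38 relative to the median gene, 0.12 at 6000 to 12000 UMIs and 0.076 at the stricter limits in MARCH1-/- hosts, and 0.27, 0.0075 and -0.036 (sign changed) in WT hosts. Type 2 over no marker in WT hosts became 0.032 at 6000 to 12000 UMIs. Large over small became 1.09 in MARCH1-/- hosts and 1.12 in WT hosts with members assigned by structure, and 0.79 and 0.72 without the 3 members. Relative to the median gene the members past 1.5-fold were 6 higher and 9 lower between hosts, 4 and 14 in non-cycling and 7 and 8 in cycling cells, and 0 were lower in cycling cells of MARCH1-/- hosts. With 20 UMIs as the minimum 5 were lower in cycling cells of WT hosts.

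Leaving out members that share a number with a pseudogene symbol of the gene table was not run, since it has none. GENCODE M21 has one for Mrpl23, Mrpl48 and Mrps36, and leaving these out kept every sum and subunit ratio within its counting interval. That alternative, the one without the 3 most abundant members and the depth range were chosen after seeing the data. The subunit ratio has no total or median gene to change. No paired analysis was possible because each group is 1 library.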
